A study of Mus musculus with 39 samples.

Results

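The miR-290 to miR-295 cluster was read in mouse embryonic stem cells (ESCs) and in their differentiating progeny as 9 mature miRNAs, chosen by name and not by their values: mmu-miR-290-5p, mmu-miR-290-3p, mmu-miR-291a-5p, mmu-miR-291a-3p, mmu-miR-292-5p, mmu-miR-292-3p, mmu-miR-293, mmu-miR-294 and mmu-miR-295, written below without the species prefix. They are 9 of the 650 mouse miRNAs on the array, and all were detected on all 39 arrays (351 of 351 values). The cells were the TCL-1 line, derived from 129/SvJae mice. Undifferentiated ESCs were kept on mitotically inactivated mouse embryonic fibroblast feeders with LIF, and form the first group. Cells for differentiation were freed of feeders by a passage on gelatin, plated on collagen and moved to RPMI medium with B27 and, per the labels, sodium butyrate. There they received Activin A at 100 ng/ml, Wnt3a at 50 ng/ml, both factors at these doses, or no growth factor (control), and were collected at days 1, 3 and 5. The 13 groups hold 3 arrays each. Groups are those of the scanner files' labels; in a second deposited table the columns of Activin A and of both factors are exchanged, and which source is right was not settled, so the 2 names, and the sign of their comparison, rest on the scanner files. All differentiated groups share the change of medium and plate, so the day of culture and that change cannot be told apart in comparisons with ESCs. The study asked which miRNAs accompany the formation of definitive endoderm (DE) and whether Wnt3a adds to Activin A.

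Mouse ESCs are known for a high level of the miR-290 family, which is made from 1 long transcript that is cut into several hairpins. Each hairpin can give a mature strand from its 5′ arm (5p) and from its 3′ arm (3p). Several 3p strands carry the AAGUGC core near their 5′ end, which they share with the miR-302 family of primed pluripotent cells, and miRNAs with this core are known to repress inhibitors of the G1 to S transition and to favour self-renewal. The family normally falls as ESCs leave pluripotency. Activin A, a Nodal-like ligand, drives the Smad2/3 pathway, which at high dose steers ESCs toward mesendoderm and DE, and Wnt3a acts through beta-catenin in the same step.

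The cluster lies at chr7:3218626-3220841 on the plus strand of GRCm38.p6, a stretch of 2216 bases from the start of Mir290a to the end of Mir295 in the RefSeq annotation. It overlaps the lncRNA gene D7Ertd143e (3218784 to 3221015) and, in its annotated span, the protein-coding gene Nlrp12 (3218643 to 3249771). The hairpins follow each other as Mir290a (3218626 to 3218708), Mir291a (3218919 to 3219000), Mir292 (3219189 to 3219270), Mir291b, Mir293 (3220343 to 3220422), Mir294 (3220641 to 3220724) and Mir295 (3220773 to 3220841). Mature sequences of 8 of the 9 members were matched in RefSeq, where the names on the array correspond to miR-290a-5p, miR-290a-3p, miR-292a-5p, miR-293-3p, miR-294-3p and miR-295-3p for 6 of them, and miR-292-3p is named only. They are shown 5′ to 3′ with the seed, bases 2 to 8, in capitals, because the seed groups the members. The first set carries the seed AAGUGCU, with the 2 relatives from the miR-302 cluster that have the same seed:
miR-291a-3p: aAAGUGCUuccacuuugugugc
miR-294: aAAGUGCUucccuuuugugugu
miR-295: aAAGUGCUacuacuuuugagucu
miR-302b: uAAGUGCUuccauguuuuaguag
miR-302d: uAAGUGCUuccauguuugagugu

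miR-292-3p is a 3p strand as well, but it is absent from the RefSeq table, so its seed was not compared. The remaining matched 3p strands have seeds that no other mature miRNA of that table has, AAGUGCC in miR-290-3p and GUGCCGC in miR-293:
miR-290-3p: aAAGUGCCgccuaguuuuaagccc
miR-293: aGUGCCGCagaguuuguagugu

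The 5p strands have other seeds, CUCAAAC in miR-290-5p and miR-292-5p, and AUCAAAG in miR-291a-5p, which is shared with miR-291b-5p of the same cluster:
miR-290-5p: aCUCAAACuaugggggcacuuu
miR-292-5p: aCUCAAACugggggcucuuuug
miR-291a-5p: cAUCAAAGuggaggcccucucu
miR-291b-5p: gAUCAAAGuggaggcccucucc

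The letters AAGUGC, read on the mature strand anywhere in its length, occur in 20 of 1679 mature mouse miRNAs of the table (1.19%). Among them are 4 of the 8 matched members, and miR-292-3p, absent from the table, was not counted. Whole sequences differ more than seeds do: miR-291a-3p and miR-294 are 3 edits apart, miR-294 and miR-295 are 5 apart, and miR-291a-5p and miR-291b-5p are 2 apart. How well the array probes separate such close sequences was not tested.

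Signals are the scanner software's total signal per miRNA, in arbitrary units, and values of a group are given for arrays 1, 2 and 3. Tests used log2 signals after quantile normalization of all 39 arrays, with limma and Benjamini-Hochberg adjustment over every miRNA tested, and "called" means an adjusted p under 0.05 with a change above 2-fold. This scale has a limit for the brightest members: quantile normalization gives the same value to the same rank, and miR-294 was ranked 1 and miR-291a-3p was ranked 5 on every ESC and day 1 array, so their differences among those arrays are 0 by construction. miR-292-3p was ranked 2 on all of these arrays but 1, where it was ranked 3. A second scale, log2 signal against the 75th percentile of the 143 miRNAs detected on all arrays, keeps such differences, and is given beside the first wherever it matters. The arrays had no saturated spot, and detected between 183 and 249 miRNAs in ESCs and at day 1 and between 254 and 375 at days 3 and 5. The software's own error per member lay between 5.29% and 15.5% of its signal. The 3 arrays per group limit the precision, and nothing says that they came from separate cultures, so p-values measure the spread between these samples, which may be technical. RNA came from bulk cells, so fewer cells with the cluster and less of it per cell cannot be told apart.

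The 9 members gave most of the summed miRNA signal of an ESC array and a small part of it after 5 days without growth factor. Their share was 53.2%, 55.3% and 53.9% in ESCs, and over the 15 ESC and day 1 arrays of all treatments it stayed between 53.2% and 59.6%. Control cells had 18.3%, 18.3% and 19.5% at day 3, and by day 5 the share was 8.05%, 8.48% and 8.38%. With Activin A the day 5 share was 23.8%, 23% and 23.6%, and with Activin A plus Wnt3a it was 26.7%, 27.8% and 28.4%. With Wnt3a alone it was 11.8%, 11.6% and 13.7%. At days 3 and 5 the arrays of the 4 treatments did not overlap except at day 3 for both factors, with 34%, 34% and 33.2%, and Activin A alone, with 32.7%, 33.3% and 32.5%. A share is taken within an array and needs no scaling between arrays, but it is a share of signal, not of molecules, and it depends on the other miRNAs too.

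**Figure D1:**
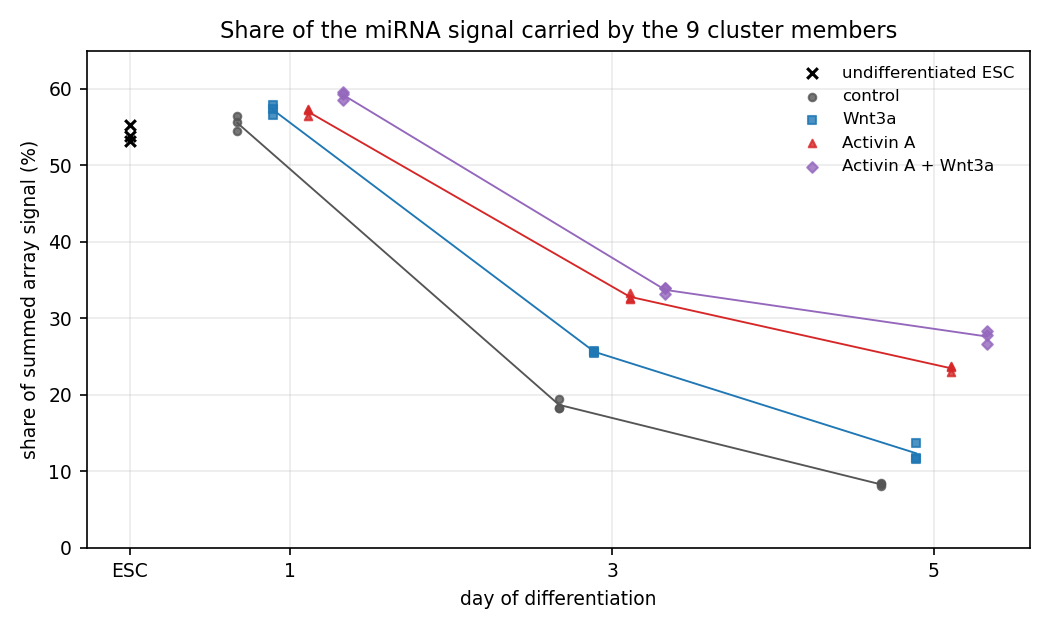
Share of the summed miRNA signal of each array carried by the 9 members, in percent, by group. Points are arrays, 3 per group. The ESC and day 1 arrays lie between 53.2% and 59.6%, and the control arrays at day 5 between 8.05% and 8.48%.

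One day in differentiation medium changed the members little. Against ESCs, 0 of 9 were called in control cells at day 1 by limma, where 8.58% of the 373 miRNAs tested were called higher and 8.04% lower. An unadjusted p under 0.05 was found for 1 member, and a plain test of group means without limma also called 0. The signal of miR-294 was 8378, 7693 and 8776 in ESCs and 8389, 10124 and 9059 at day 1, and its rank was 1 on all of these arrays. On the 75th-percentile scale 6 members were higher at day 1 with an adjusted p (limma) under 0.05, between 0.25 for miR-290-5p and 0.62 for miR-290-3p on the log2 scale, all less than 2-fold (27.1% of miRNAs tested were higher there by the adjusted p). The ESC and control day 1 arrays shared 1 slide.

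Between day 1 and day 3 the cluster fell in control cells. All 9 members passed the adjusted p as lower (21.7% of miRNAs tested), 6 were called lower (17.2%), and on the quantile scale the arrays of the 2 days did not overlap for any of the 9 (23.3% of miRNAs tested were non-overlapping and lower). The members' median log2 difference was -1.41, beside 0.50 over all miRNAs tested. The largest falls on the quantile scale were those of miR-291a-5p, by 2.42 ± 0.35 (log2 ± SE, n = 3 arrays per group), of miR-290-3p, by 2.37 ± 0.15, and of miR-292-5p.

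The smallest quantile-scale fall was that of miR-294. Its signal was 8389, 10124 and 9059 at day 1 and 4699, 4730 and 4952 at day 3, which are separate ranges. Its fall was 0.43 on the quantile scale (adjusted p = 0.00255, limma), where it moved from rank 1 to rank 2, and 2.11 on the 75th-percentile scale. On that second scale all 9 members were called lower (17.7% of miRNAs tested), and the order differs, with the largest falls for miR-292-3p, by 2.72 or 6.61-fold, and miR-293, by 2.53.

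From day 3 to day 5 the fall went on for most members, and 5 were called lower (8.31% of miRNAs tested) while 8 passed the adjusted p as lower (20.9%). The signal of miR-291a-5p was 50.4, 49.1 and 54.4 at day 3, and at day 5 it read 20.8, 19.2 and 22, again without overlap, a fall of 2.28 on the quantile log2 scale and of 1.42 on the 75th-percentile scale. miR-294 fell by 1.67 and miR-291a-3p by 1.11. The exception on the quantile scale was miR-290-5p, whose day 3 signals of 339, 341 and 338 compare with 387, 377 and 380 on day 5, a log2 difference of 0.03 (adjusted p = 1, limma). On the 75th-percentile scale miR-290-3p was not lower either, at 0.067 (adjusted p = 0.815, limma), and 7 members passed the adjusted p as lower (16.1% of miRNAs tested). Day and slide cannot be told apart from day 3 to day 5, because no slide held control cells of both days. No slide held control cells of days 1 and 3 either. Control array 1 of day 3 did share a slide with all day 1 arrays given Wnt3a or both factors and with array 3 of Activin A. The members' share was 18.3% on that control array. It was 57.9%, 56.6% and 57.4% with Wnt3a, 59.4%, 59.6% and 58.6% with both factors, and 57.2% on the Activin A array.

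**Figure D2:**
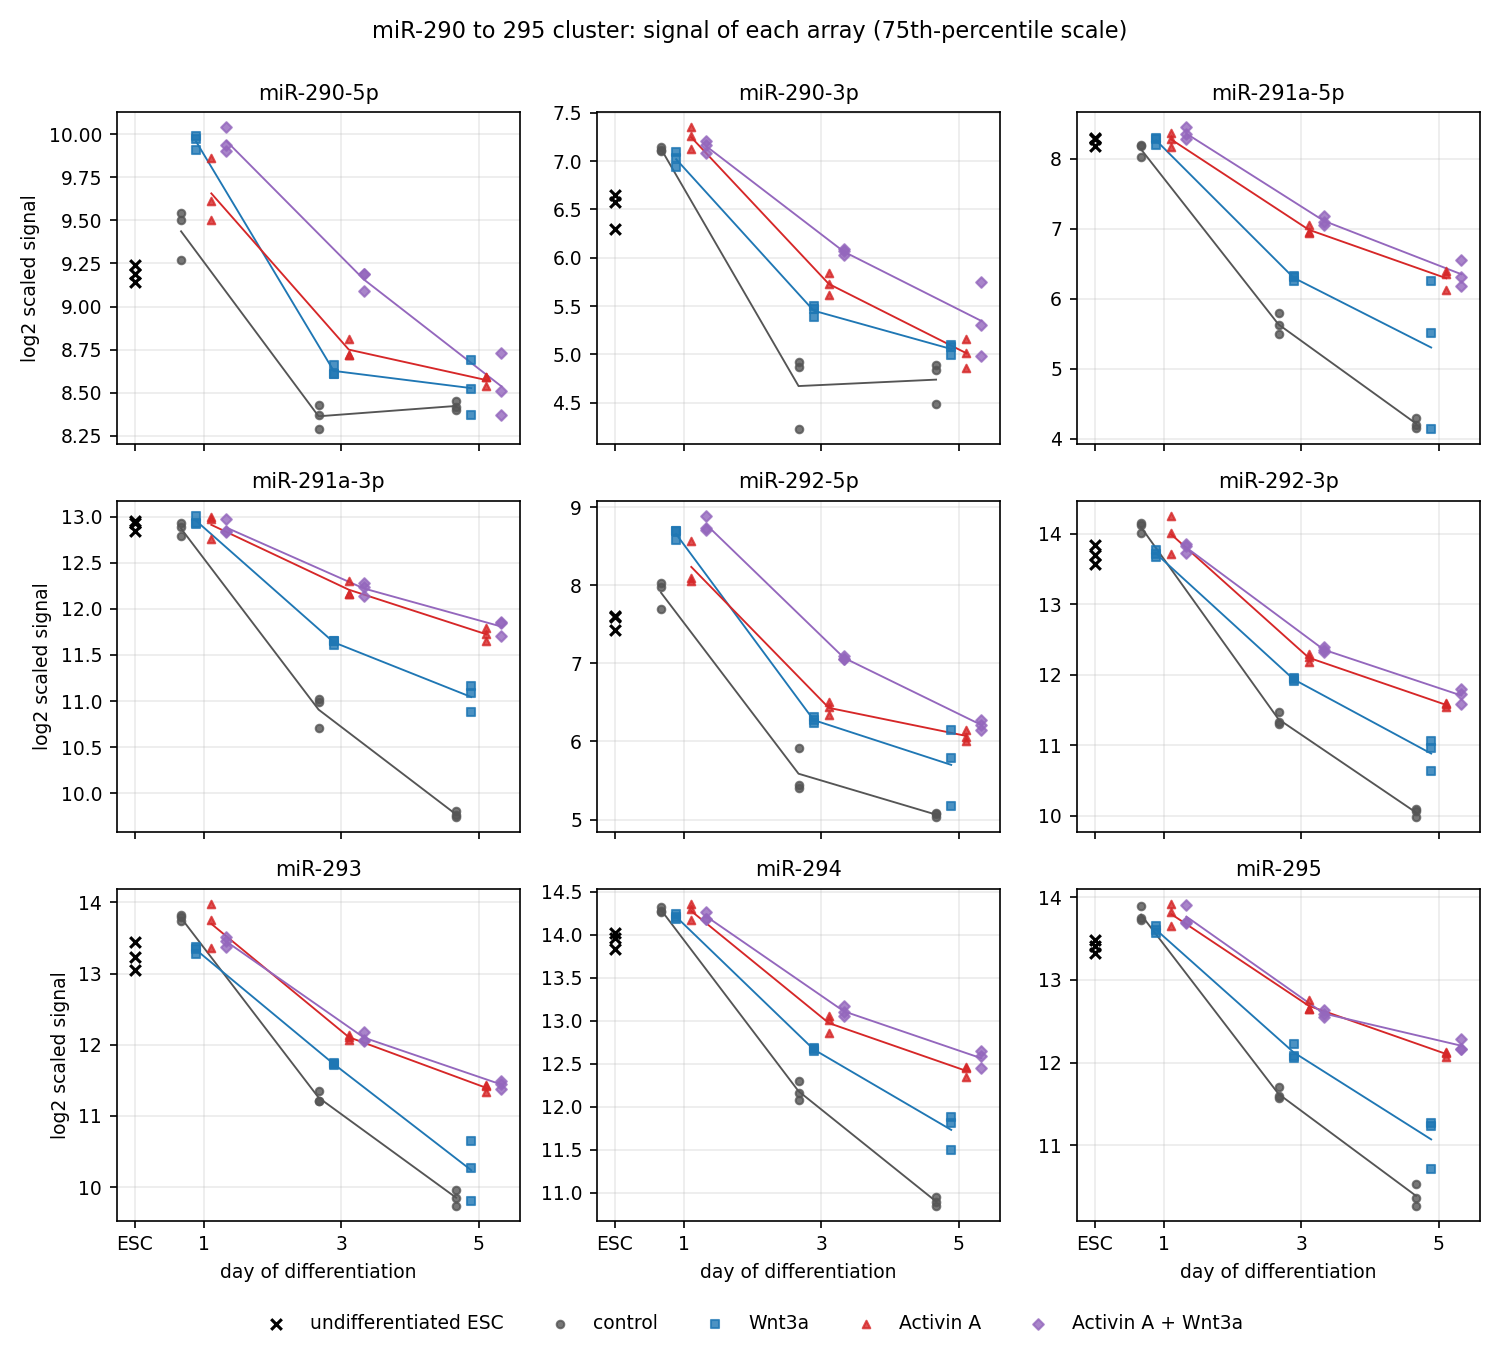
Log2 signal of each member on the 75th-percentile scale by day, with 1 panel per member and its own axis. Points are arrays, 3 per group, and lines join the group means of each treatment from day 1 on. For miR-294 the control arrays go from 13.84 to 14.02 in ESCs to between 10.85 and 10.95 at day 5, and miR-290-5p covers the least range.

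After 5 days without growth factor all 9 members were called lower than in ESCs on the quantile scale, against 19.8% of the 373 miRNAs tested, and on that scale no array of day 5 reached an ESC array for any member (23.3% of miRNAs tested were non-overlapping and lower). The members' median was -2.42 on the log2 scale and that of all miRNAs tested was 0.55. The medians were -3.04 and 1.10 on the 75th-percentile scale, where 8 of 9 members were called lower (15.8% of miRNAs tested). No slide held both ESC and day 5 arrays, and these arrays were scanned on different dates. Day, slide and scan date therefore cannot be told apart in any comparison of day 5 cells with ESCs, whatever the treatment.

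Among the strands with the AAGUGCU seed, miR-294 had signals of 8378, 7693 and 8776 in ESCs and 2092, 2047 and 2226 in control cells at day 5. It fell by 2.10 ± 0.12 on the quantile log2 scale, 4.29-fold (adjusted p = 2.83e-15, limma), and 8.24-fold on the 75th-percentile scale. miR-291a-3p had signals of 4189, 3658 and 4295 in ESCs and 1015, 919 and 974 at day 5. The 2 groups were far apart, with a fall of 2.39 ± 0.12, 5.25-fold (adjusted p = 3.17e-16, limma). miR-295 went from 5896, 5288 and 6001 to 1397, 1588 and 1472, a 3.06-fold fall on the quantile scale and an 8.14-fold fall on the other. The 3 strands with this seed therefore had folds between 3.06 and 5.25 on the first scale and between 8.14 and 8.80 on the second.

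The other 3p strands were lower too, by amounts that depend on the scale. miR-292-3p had 6947, 6824 and 7310 in ESCs and 1143, 1171 and 1209 at day 5, a 5.36-fold fall on the quantile scale (adjusted p = 1.17e-19, limma) and a 12.6-fold fall on the 75th-percentile scale. miR-293, whose seed has no relative in the table, had 4846, 5124 and 5336 against 969, 1068 and 1039, a 5.35-fold fall on the quantile scale and a fall of 3.39 on the 75th-percentile log2 scale. miR-290-3p had 45, 46.5 and 52.6 against 32.4, 24.1 and 33.4, closer in raw signal than the others, and fell 6.36-fold on the quantile scale and 3.41-fold on the 75th-percentile scale.

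The 5p strands held both the largest and the smallest fall. miR-291a-5p had 179, 135 and 173 in ESCs and 20.8, 19.2 and 22 at day 5, and fell by 4.98 ± 0.35 on the log2 scale, 31.7-fold (adjusted p = 3.63e-13, limma), or 16.5-fold on the 75th-percentile scale. miR-290-5p had 346, 261 and 321 against 387, 377 and 380, so its raw signal was not lower at day 5. Relative to the other miRNAs of its array it fell 2.50-fold on the quantile scale (adjusted p = 1.06e-06, limma) and 1.70-fold on the 75th-percentile scale, the only member under 2-fold there. miR-292-5p, which shares its seed, fell 8.79-fold and 5.56-fold on the 2 scales.

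**Figure D3:**
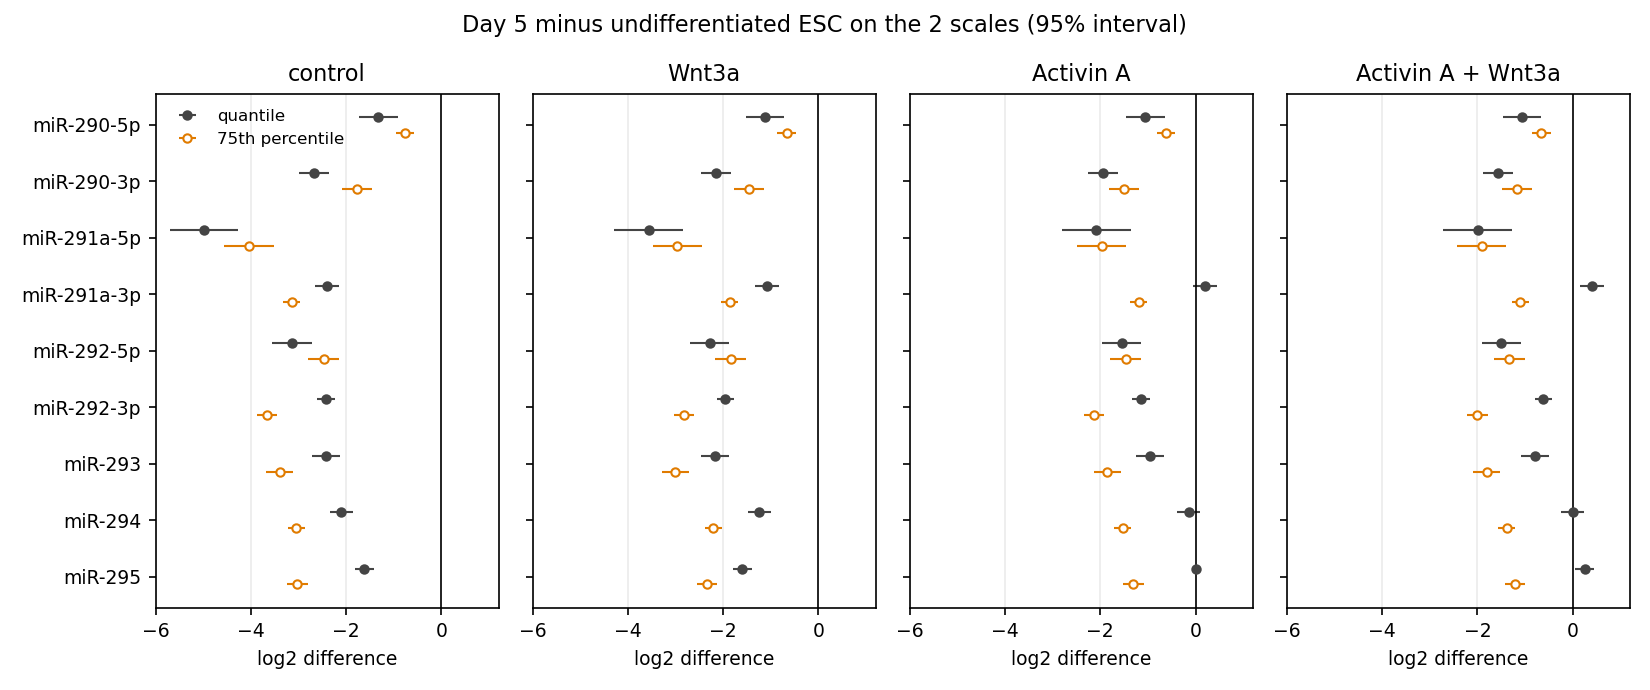
Log2 difference of each member between day 5 and ESCs for the 4 treatments, on the quantile scale and on the 75th-percentile scale. Points are differences of group means of 3 arrays and bars are 95% confidence intervals from limma. All members lie below 0 in control cells on both scales, from -1.32 to -4.98 on the quantile scale, and miR-291a-3p, miR-294 and miR-295 with Activin A lie near 0 on the quantile scale and below -1 on the 75th-percentile scale.

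With Activin A the cluster at day 5 was nearer to its ESC level, and how near depends on the scale. On the quantile scale 5 members were called lower than in ESCs (15.8% of miRNAs tested), and miR-291a-3p, miR-294 and miR-295 differed by 0.20, -0.14 and 0.00, none past the adjusted p. The same 3 differed on the 75th-percentile scale by -1.19, -1.53 and -1.31, and 8 members were called lower (12.9%). The raw signal of miR-294 was 8955, 7475 and 8196 with Activin A against 8378, 7693 and 8776 in ESCs, and the ranges overlap.

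Cells with both factors gave 4 members called lower than ESCs on the quantile scale (15.8%) and 8 on the other (12.6%). There miR-291a-3p was 0.41 higher than in ESCs on the quantile scale (adjusted p = 0.00516, limma) and 1.10 lower on the 75th-percentile scale, so its direction rests on the scaling. The same held for miR-295, at 0.25 (adjusted p = 0.0277) and -1.21. With Wnt3a alone all 9 members were called lower than ESCs (18.8%), and 8 on the 75th-percentile scale (13.4%), where miR-291a-5p had log2 differences of -3.56 on the quantile scale and -2.96 on the other.

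At day 1 the 3 members with an adjusted p under 0.05 in cells given Wnt3a alone were 5p strands, miR-290-5p, miR-291a-5p and miR-292-5p. All were higher than in control cells, and none passed the adjusted p when slide entered the fit. With both factors miR-291a-5p still passed it in each slide fit and miR-292-5p in 1 of them. Wnt3a gave 1 member called higher than in control cells, where 2.92% of 240 miRNAs tested were, and 3 members past the adjusted p as higher (10%). Both factors together also gave 1 called (3.75%) and 3 past the adjusted p (12.5%). The called member was miR-290-5p each time. Its signals were 262, 379 and 320 in control cells, 591, 833 and 684 with Wnt3a, and 671, 698 and 777 with both factors. Its log2 levels on the 75th-percentile scale were 9.27, 9.54 and 9.50 in control cells and 9.61, 9.50 and 9.86 with Activin A alone. The Wnt3a arrays and the arrays with both factors lay above every control array, while those with Activin A alone overlapped them. The differences were 1.17 ± 0.27 for Wnt3a (adjusted p = 0.0162) and 1.14 for both factors (adjusted p = 0.0159) by limma.

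miR-291a-5p was higher by 0.22 with Wnt3a (adjusted p = 0.00453, limma) and by 0.34 with both factors (adjusted p = 0.000338). miR-292-5p was higher by 0.82 ± 0.13 with Wnt3a (adjusted p = 0.00453) and by 0.94 with both factors (adjusted p = 0.00113), short of 2-fold. Its signals were 88.1, 129 and 116 in control cells, 235, 343 and 278 with Wnt3a and 298, 314 and 328 with both. With Wnt3a miR-290-5p was 0.52 higher and miR-292-5p 0.75 higher on the 75th-percentile scale, both past the adjusted p (0.00864 and 0.00774, limma), and none was called. There miR-292-3p and miR-293 were 0.38 and 0.46 lower with Wnt3a (adjusted p = 0.0382 and 0.0276, limma), while on the quantile scale their ranks hardly moved. With Activin A 0 members were called or passed the adjusted p (0% of miRNAs tested were called higher and 1.67% passed the adjusted p as higher). Of the members 3 had an unadjusted p under 0.05, and the plain test without limma called 0.

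At day 1 no slide held both control cells and cells given Wnt3a. The 2 Activin A arrays on the slide of the control arrays had miR-290-5p at 9.61 and 9.50 on the 75th-percentile log2 scale, and the Activin A array on the slide of the Wnt3a arrays had 9.86. With slide as a random block the Wnt3a difference of miR-290-5p was 0.69 (adjusted p = 0.334, limma) and with slide as a term estimated through the Activin A arrays, a fit added after seeing the data, it was 0.15 (adjusted p = 0.895). The same fits gave 0.61 (adjusted p = 0.0901) and 0.38 (adjusted p = 0.427) for miR-292-5p, and 0.21 (adjusted p = 0.0671) and 0.20 (adjusted p = 0.242) for miR-291a-5p. With both factors the random block gave 0.73 (adjusted p = 0.0243) for miR-292-5p and 0.33 (adjusted p = 0.00506) for miR-291a-5p, and the fixed term 0.50 (adjusted p = 0.138) and 0.31 (adjusted p = 0.0326). Wnt3a and slide can be separated at day 1 only through the 1 Activin A array on the slide of the Wnt3a arrays, and cannot be told apart without it.

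By day 3 the cluster was higher than control in every treatment. With Activin A 6 members were called higher (12.6% of 326 miRNAs tested) and with both factors 8 (12.9%), and all 9 passed the adjusted p in both (25.5% and 27%). The members' median was 1.05 with Activin A and 1.32 with both factors, beside -0.04 and -0.03 over all miRNAs tested. With normexp background correction in place of the software's, the members' medians were 0.19 and 0.21, and 3 and 2 members were called. Beside these, the medians were 0.02 and 0.02 over all miRNAs tested, and 0.21 and 0.24 over miRNAs detected on all arrays. With Wnt3a alone 0 were called (3.07%), by limma or by the plain test without limma. By limma 8 passed the adjusted p as higher (15.6%), and all 9 had an unadjusted p under 0.05. With Wnt3a the normalized arrays did not overlap for any of the 9 (19.9% of miRNAs tested were non-overlapping and higher). Its median was 0.43, beside -0.01.

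miR-291a-3p had signals of 2126, 2224 and 1645 in control cells at day 3, 3769, 3745 and 3904 with Wnt3a, 5674, 5686 and 6816 with Activin A, and 5466, 5166 and 6452 with both. Control was lowest, Wnt3a next, and the 2 groups with Activin A overlapped at the top. With Activin A the difference was 1.64, or 3.11-fold, and with both factors 1.48. miR-292-3p had 2634, 2747 and 2816 in control cells, 4553, 4600 and 4927 with Wnt3a, 6071, 5649 and 6945 with Activin A, and 6321, 5735 and 6672 with both, in the same order. Its differences were 0.43, 1.27 and 1.32. miR-291a-5p had 50.4, 49.1 and 54.4 in control cells against 165, 138 and 186 with Activin A, a difference of 1.38.

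For miR-294 the quantile scale gives 0.43 in all 3 treatments, because it was ranked 1 in each treated group and 2 in control cells. Its signals were 4699, 4730 and 4952 in control cells, 7527, 7608 and 8230 with Wnt3a, 10474, 9309 and 11080 with Activin A, and 11167, 9385 and 11079 with both. The differences on the 75th-percentile scale were 0.49 for Wnt3a, 0.79 for Activin A and 0.93 for both. On that scale all 9 members passed the adjusted p as higher in each treatment (16.3%, 20.6% and 29.4% of miRNAs tested), and 0, 4 and 4 were called higher (3.07%, 8.9% and 12.9%).

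A single slide held 2 of the control arrays and all Wnt3a and Activin A arrays of day 3. Within it all 9 members were above control with Wnt3a, between 0.38 and 0.63, and with Activin A, between 0.43 and 1.68. The arrays with both factors were on a slide without other day 3 arrays, scanned on another date, so that treatment, slide and scan date cannot be told apart.

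At day 5 most of the cluster was well above control with Activin A and with the combination. With Activin A 7 members were called higher (13.6% of 368 miRNAs tested), and with both factors 8 (15.5%). The arrays did not overlap with control for any of the 9 members in either case, where 34% and 36.4% of miRNAs tested were non-overlapping and higher. The members' median was 1.58 with Activin A and 1.81 with both factors, and that of all miRNAs tested was -0.03 and 0. On the 75th-percentile scale 7 were called higher in each (13% and 12.2%).

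The member with the largest difference was miR-291a-5p, with signals of 20.8, 19.2 and 22 in control cells, 134, 118 and 102 with Activin A and 114, 107 and 111 with both. Every treated array was far above every control array, 7.49-fold with Activin A (adjusted p = 0.00436) and 7.96-fold with both, by limma on the quantile scale, and 4.21-fold and 4.39-fold on the 75th-percentile scale. Its 3p partner miR-291a-3p had 1015, 919 and 974 in control cells, 5387, 5112 and 4693 with Activin A and 5267, 5045 and 4335 with both. It was 6.05-fold higher with Activin A (adjusted p = 4.16e-06, limma) and 6.98-fold higher with both factors, or 3.86-fold and 4.11-fold on the 75th-percentile scale.

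miR-294 had 2092, 2047 and 2226 in control cells, 8955, 7475 and 8196 with Activin A and 8792, 8335 and 7510 with both, with no overlap. Its differences were 1.96 ± 0.21 (3.88-fold, adjusted p = 5.57e-05, limma) and 2.10 (4.29-fold). miR-295 had 1397, 1588 and 1472 against 7025, 6477 and 6293 with Activin A, a 3.06-fold difference. miR-292-3p and miR-293 were 2.42-fold and 2.77-fold higher with Activin A, and miR-292-5p 3.00-fold.

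The products of the first hairpin moved least. miR-290-5p had 387, 377 and 380 in control cells and 612, 556 and 544 with Activin A, a difference of 0.27 (adjusted p = 0.14, limma) that was 0.26 with both factors (adjusted p = 0.134). miR-290-3p was 0.73 higher with Activin A (adjusted p = 0.0383) and 1.11 higher with both factors (adjusted p = 0.00398), by limma. These were 0.28 and 0.61 on the 75th-percentile scale.

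One slide held 2 of the Activin A arrays and all control arrays of day 5, and within it all 9 members were higher with Activin A, between 0.31 and 2.98, with a median of 1.61. With slide as a term every call for Activin A stood, with miR-294 at 1.89 (adjusted p = 0.000441, limma). No slide held control cells and cells given both factors: with slide as a term through the Activin A arrays 5 of the 8 calls stood, and miR-290-3p, miR-291a-5p and miR-292-5p had adjusted p of 0.052, 0.0873 and 0.0635 (limma).

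**Figure D4:**
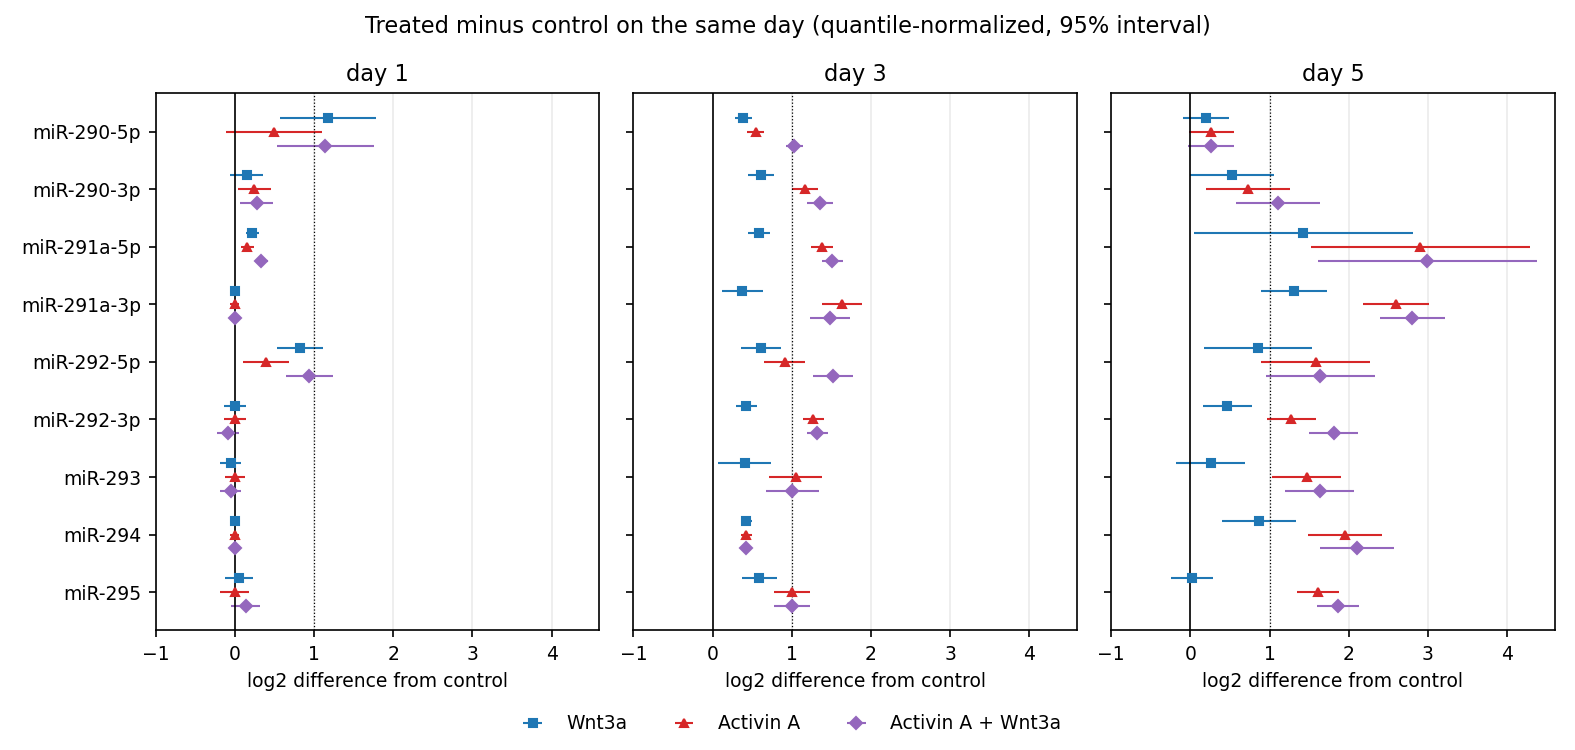
Log2 difference of each member from control cells of the same day on the quantile scale, for Wnt3a, Activin A and both factors at days 1, 3 and 5. Points are differences of means of 3 arrays, bars are 95% confidence intervals from limma and dotted lines mark 2-fold. At day 5 miR-291a-5p and miR-291a-3p lie highest with Activin A, at 2.91 and 2.60, and miR-290-5p lies lowest, at 0.27.

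With Wnt3a alone at day 5 only miR-291a-3p was called higher by limma on all 12 arrays, 1 of 9 members where 2.72% of miRNAs tested were called. Its signals were 1986, 4243 and 2368 against 1015, 919 and 974 in control cells, a difference of 1.31 ± 0.18 (2.48-fold, adjusted p = 0.00234), and 1.27 on the 75th-percentile scale. miR-294 was 0.86 higher (adjusted p = 0.0379), with 3446, 5392 and 4521 against 2092, 2047 and 2226. These 2 passed the adjusted p (5.43% of miRNAs tested did as higher). The other 7 members did not, among them miR-291a-5p at 1.42 (adjusted p = 0.224), whose signals were 69.9, 32.6 and 57.1. The 75th-percentile scale also called 1 member (4.08%) and let 4 pass the adjusted p as higher (7.88%): miR-291a-3p, miR-294 at 0.83, miR-292-3p at 0.83 and miR-295 at 0.68. All Wnt3a arrays of day 5 were on 1 slide and all control arrays on another. With slide as a term through the Activin A arrays, added after seeing the data, miR-291a-3p was at 1.62 (adjusted p = 0.103, limma) and miR-294 at 0.65 (adjusted p = 0.749), and with slide as a random block at 1.25 (adjusted p = 0.000198) and 0.91 (adjusted p = 0.0029).

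The 3 Wnt3a arrays of day 5 differed from each other for several miRNAs. Array 1 had 814 for miR-293 where the others had 2295 and 2010, and 25.2 for miR-302b where they had 563 and 411. Array 2 was ranked 263 for miR-291a-5p where the others were ranked 124 and 195. Without array 1 only miR-291a-3p was called, at 1.15. Without array 2 there were 4 calls, namely miR-291a-5p at 2.21, miR-291a-3p at 1.30, miR-292-5p at 1.22 and miR-294 at 1.11. Without array 3 miR-291a-3p stayed called at 1.49 and miR-294 was at 0.81 (adjusted p = 0.0598, limma).

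Adding Wnt3a to Activin A gave few differences among the members. Against Activin A alone the combination called 0 of 9 members at each day, by limma and by the plain test without limma. By limma 0.833%, 1.84% and 1.9% of miRNAs tested were called higher at days 1, 3 and 5. Differences under 2-fold passed the adjusted p at day 1 for miR-291a-5p (0.18, adjusted p = 0.0147) and miR-292-5p (0.55, adjusted p = 0.0309), and at day 3 for miR-290-5p (0.49, adjusted p = 7.81e-05) and miR-292-5p (0.61, adjusted p = 0.00408), where 5.83% and 15% of miRNAs tested passed as higher. With slide as a term those at day 1 were 0.17 (adjusted p = 0.188) and 0.25 (adjusted p = 0.446), and at day 3 the 2 groups were on different slides. An unadjusted p under 0.05 was found for 3 members at day 1 and 3 at day 3. At day 5 none passed the adjusted p and 1 had an unadjusted p under 0.05. The largest was miR-292-3p at 0.53 (adjusted p = 0.0573), with 4851, 4596 and 4168 against 4931, 4304 and 4484, so that the raw signals overlap.

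With Activin A, alone or with Wnt3a, the difference from control was larger at day 5 than at day 1 for most members. This was tested as a difference between days in the 39-array fit. For Activin A against control, 7 of 9 members differed more at day 5 than at day 1 with an adjusted p under 0.05 (limma), where 31.4% of miRNAs tested differed in either direction. The largest of these changes were 2.75 for miR-291a-5p, 2.60 for miR-291a-3p and 1.96 for miR-294. For the last 2 the day 1 difference was 0 by construction on the quantile scale, because their ranks were fixed there. The count was also 7 on the 75th-percentile scale (32.7%). With both factors 9 members changed on the quantile scale, 8 of them higher at day 5 (44.8%). With Wnt3a alone 4 changed, 3 of them higher (16.1%). The days compared lie mostly on different slides.

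Ordered by mean level on the 75th-percentile scale, the 13 groups ran from ESCs and day 1 at the top to control cells at day 5 at the bottom for 7 of the 9 members, while miR-290-5p and miR-290-3p were lowest in control cells at day 3. For miR-294 the order was control, Activin A, both factors and Wnt3a at day 1 (14.29 to 14.21), ESCs (13.94), both factors, Activin A and Wnt3a at day 3 (13.11, 12.97 and 12.67), both factors and Activin A at day 5 (12.56 and 12.41), control at day 3 (12.18), Wnt3a at day 5 (11.73) and control at day 5 (10.90). In that order 7 of the 12 neighbouring pairs had arrays that did not overlap, and 5 overlapped: those among the 4 day 1 groups, Wnt3a at day 3 with both factors at day 5, and the latter with Activin A at day 5. Over the other members between 4 and 9 of the 12 pairs were apart on this scale, with most for miR-292-5p. On the quantile scale between 2 and 6 were apart, and the order differed for some members. There miR-291a-3p was highest with both factors at day 5 (12.59), above ESCs (12.18). miR-295 was highest with Activin A at day 3 and both factors at days 3 and 5 (12.89 each), above ESCs (12.64). miR-290-3p was lowest in control cells at day 5 on that scale (4.10).

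The 2 strands of a hairpin were also set against each other within each array, as the log2 ratio of 5p to 3p signal, which needs no scaling between arrays. The ratio itself is not one of molecules, since the probes differ, and only its change between groups is given, as a description with no test. Between ESCs and control cells at day 5 the ratio went up for miR-290, from 2.94, 2.49 and 2.61 to 3.58, 3.96 and 3.51. It also went up for miR-292, from -5.98, -6.42 and -6.10 to -4.89, -5.01 and -5.05, a 2.27-fold change toward the 5p strand.

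It went down for miR-291a, from -4.55, -4.76 and -4.63 to -5.61, -5.58 and -5.47, toward the 3p strand. For miR-294 it changed by -0.41 and for miR-295 by 0.50, taking the star strands as 5p. None of these 5 overlapped between the 2 groups, but how often ratios of other strand pairs do so was not counted. Single miRNAs were often apart in this comparison on the quantile scale, 49.9% of those tested as higher and 23.3% as lower. The changes of different hairpins went in different directions. No slide held both ESC and day 5 arrays, so day and slide cannot be told apart in these changes. With Activin A at day 1, arrays 1 and 2 shared the ESC slide and array 3 did not. Their ratios were 2.48, 2.14 and 2.6 for miR-290, and -4.39, -4.68 and -4.83 for miR-291a. They were -5.92, -6.21 and -5.15 for miR-292, -7.15, -7.36 and -6.84 for miR-294, and -7.78, -7.96 and -7.42 for miR-295. With Activin A at day 5 the changes from ESCs were 0.87, -0.78, 0.67, 0.28 and 0.47 for miR-290, miR-291a, miR-292, miR-294 and miR-295. Dim strands lie closer to the array background, whose local median was between 35 and 42 units, and the part of this in the ratios was not tested.

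**Figure D5:**
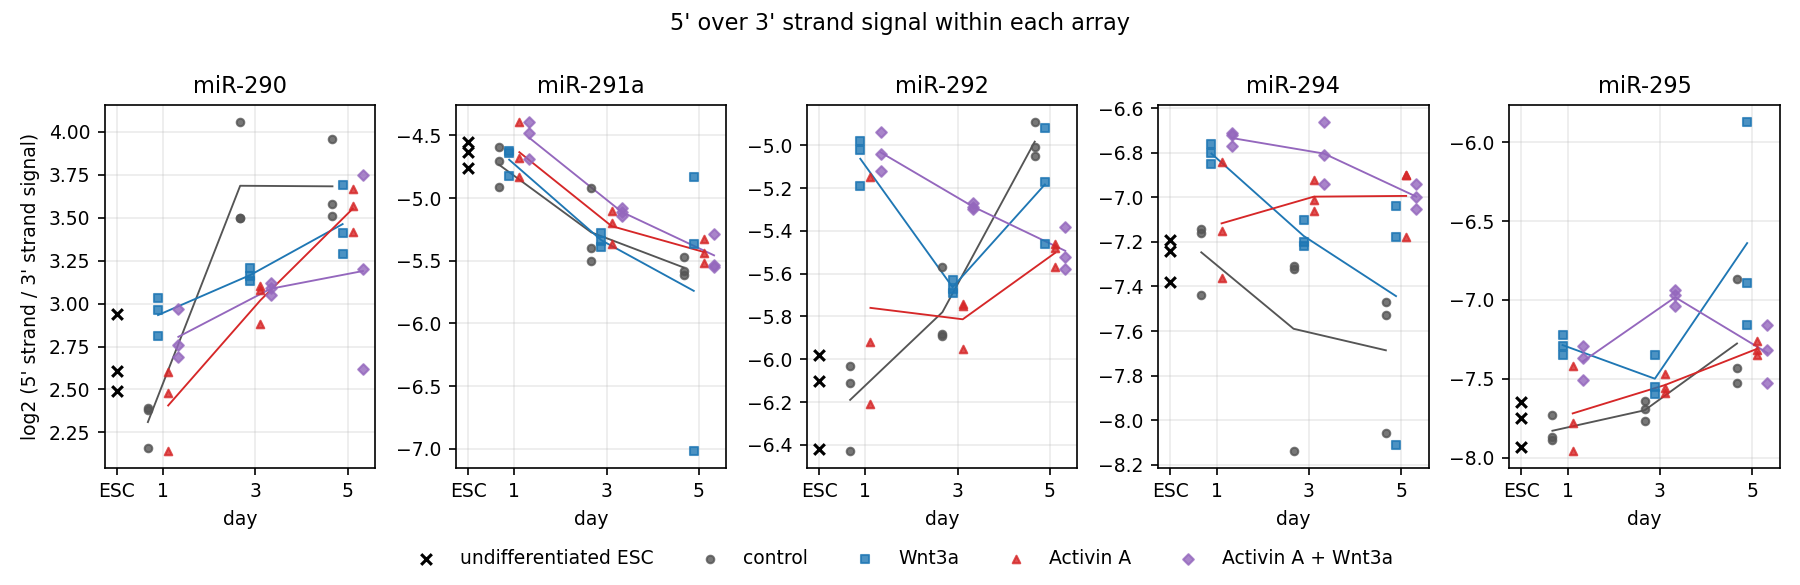
Log2 ratio of 5p to 3p signal within each array for the hairpins of miR-290, miR-291a, miR-292, miR-294 and miR-295, by group. Points are arrays, 3 per group, and lines join group means. From ESCs to control day 5 the ratio goes up by 1.00 for miR-290 and 1.19 for miR-292 and down by 0.91 for miR-291a.

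Among the other strands of the cluster on the array, the opposite strands of 3 hairpins were higher with Activin A as the members were. miR-294* and miR-295* were detected on all 39 arrays. The signal of miR-294* was 55.4, 52.5 and 52.5 in ESCs, 11.4, 11.5 and 8.35 in control cells at day 5 and 74.8, 62.6 and 56.6 with Activin A, with control well below both. Its log2 difference was -4.53 between control day 5 and ESCs, and 2.91 between Activin A and control at day 5 (adjusted p = 0.00151, limma). miR-295* had -3.63 and 2.16 in the same comparisons. miR-293* was at 24.5, 23.1 and 24.5 with Activin A at day 5, and was detected on 1 of 3 control arrays, at 4.11, while miR-291b-3p was not detected on any array.

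miR-291b-5p, which has the seed of miR-291a-5p, did not follow it. It was not detected on any ESC or control day 1 array and was at 27.9, 15.8 and 26.4 in control cells at day 5, where miR-291a-5p had 20.8, 19.2 and 22. With Activin A it was at 29.2, 28.9 and 16.2, a log2 difference of -0.08 from control (adjusted p = 1, limma), beside 2.91 for miR-291a-5p. No fold against ESCs is given, since the lowest detected level on the ESC arrays, after normalization, is above its mean day 5 level.

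By likeness over the 13 group means, the profile nearest to the mean standardized profile of the 9 members among 364 other miRNAs was that of miR-294* (Pearson r = 0.99, and 0.98 on the 75th-percentile scale). After it came miR-295* (0.99 and 0.97), miR-31 (0.97 and 0.91), miR-182 (0.95 and 0.79) and miR-27a (0.94 and 0.90). These are descriptions over 13 means that share arrays, scaling and controls. Among the members, the pairwise r ran from 0.49, between miR-290-5p and miR-295, to 0.99 on the quantile scale, and from 0.83 to 1.00 on the other.

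The cluster of miR-302 and miR-367, which carries the same AAGUGCU seed in miR-302b and miR-302d, was higher at day 3 than at day 1 in control cells, where the members were lower, and was higher with Activin A at day 5 as they were. The signal of miR-302d was 176, 157 and 173 in ESCs, 1558, 1591 and 1588 in control cells at day 3, 745, 738 and 778 at day 5, and 3563, 3087 and 2953 with Activin A at day 5. These 4 groups did not overlap, with ESCs lowest and Activin A highest. Activin A against control at day 5 gave 1.70 for miR-302d (adjusted p = 0.000393, limma) and 1.84 for miR-302b (adjusted p = 0.132). From day 1 to day 3 in control cells the log2 difference of miR-302d was 3.04. Of 8 miRNAs of that cluster tested, 5 were called higher with Activin A at day 5, beside 13.6% of miRNAs tested, and 6 were called higher in control cells from day 1 to day 3, beside 32.2%.

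Marker miRNAs of other cell types moved with these groups. The summed signal of 4 neural miRNAs on the array, among them miR-124 and miR-9, was 0 to 12.6 in ESCs, 892 to 1175 in control cells at day 5, 680 to 3737 with Wnt3a, 130 to 166 with Activin A and 53.6 to 62.9 with both factors, and all 4 were called lower with Activin A than in control, beside 11.4% of miRNAs tested. Of 5 endoderm miRNAs only miR-375 was ever detected, at 0 in ESCs and control cells at day 5, 15.2 to 18 with Wnt3a, 72.5 to 82.3 with Activin A and 102 to 113 with both. The sum over 9 let-7 miRNAs was 236 to 354 in ESCs and 871 to 1078 in control cells at day 1. It was then 33 to 66.8 at day 3 and 116 to 124 at day 5. Of 8 tested, 7 were called higher than in ESCs at day 1 (8.58% of miRNAs tested), and 8 lower at day 5 (19.8%). The 5 miRNAs of the miR-17 family, which have a related seed, summed to 2168 to 2373 in ESCs. In control cells at day 5 their sum was 10497 to 10749, with 4 of 5 called higher (38.1%).

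A list of 6 mesenchymal miRNAs, which mark feeder fibroblasts, had a summed signal of 184 to 218 in ESCs, 380 to 521 in control cells at day 1, then of 32.5 to 55.6 (day 3) and of 95.9 to 102 (day 5). In ESCs 3 of the 6 were detected on all arrays and 2, miR-143 and miR-145, on none. Of 5 tested, 3 were called lower (19.8% of miRNAs tested) and 1 higher (38.1%) in control cells at day 5 than in ESCs. With Activin A at day 5 the sum was 76.7 to 95.1, and with both factors 183 to 223. The part of these cell types in the results for the cluster was not tested.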

How the data were processed

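Total RNA was labelled with Cy3 and hybridised to Agilent 1-colour mouse miRNA arrays. The deposited intensities are the total signal per miRNA that Agilent Feature Extraction wrote after background subtraction, version 10.7.3.1 per the file headers and 9.5.3.1 per the labels, with an undetected miRNA at 0.1. The authors also deposited a table of log2 values, quantile normalized; 18 of its 39 columns matched another array than the one they were named for, with Activin A and Activin A plus Wnt3a exchanged at each day, so it served only as an alternative. Which of the sources carries the right names was not settled, and arrays were grouped by the labels of the scanner files.

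Here the intensities were quantile normalized over 39 arrays as in the study's methods, floored at 2 and taken to log2 (R 4.3.3, limma 3.58.1, statmod 1.5.0). A miRNA was tested if detected on at least 2 of 3 arrays of a group. Comparisons across days used 1 fit of all 39 arrays and those within a day the 12 arrays of the day. limma stood in place of the one-way ANOVA of the methods, and the test was run on simulated data first. All 9 members were reported, with the 5 most similar miRNAs by correlation of group means, and other listed miRNAs were to be named only if they share a seed or the cluster with a member and otherwise counted or summed; miR-375, the only endoderm miRNA detected, and the markers miR-124, miR-9, miR-143 and miR-145 were named outside that rule, with their values known. The members and the lists were chosen with earlier results of these data known.

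Alternatives changed the scaling, background correction, floor, filter, set of arrays and test, took slide or replicate number as a block, used the deposited table, or left out 1 array. The arrays lay on 5 slides, scanned on 2 dates. ESC, day 1 and day 3 arrays were scanned on the first date, except those with both factors at day 3. The latter and all day 5 arrays were scanned on the second. Replicate numbers come from the labels. Same-numbered arrays deviated together, with every correlation over 0.1, in 3 of 19 comparisons, Wnt3a against control at day 1 (0.115, 0.275 and 0.2), Activin A against control at day 1 (0.23, 0.388 and 0.167) and both factors against Activin A at day 3 (0.175, 0.207 and 0.151).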

Additional observations from a re-analysis of the deposited data

Results flagged for a closer look

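The difference between a treatment and control changed between days, by a test of that change (limma, adjusted p under 0.05 over all miRNAs in the 39-array fit), for some members in each of 9 comparisons. For Activin A the changed members were 5 of 9 for day 3 against day 1 (15% of miRNAs tested changed), 7 for day 5 against day 1 (31.4%) and 4 for day 5 against day 3 (20.9%), with the treatment difference higher on the later day in each of them on the quantile scale. For both factors they were 5 (21.4%, all higher), 9 (44.8%, 8 higher) and 7 (28.4%, 6 higher) in the same order, and for Wnt3a 2 (9.38%, both higher), 4 (16.1%, 3 higher) and 2 (4.83%, 1 higher). The member that went the other way was miR-290-5p, whose difference was lower at day 5 than at day 1 with Wnt3a (-0.98, adjusted p = 0.0158, limma) and with both factors (-0.89, adjusted p = 0.0109), and lower at day 5 than at day 3 with both (-0.77, adjusted p = 0.0377). For Wnt3a from day 3 to day 5 it was miR-295 (-0.58, adjusted p = 0.0104).

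On the 75th-percentile scale the counts in the same order were 7, 7 and 6 for Activin A (15.3%, 32.7% and 18% of miRNAs tested, with 7, 7 and 5 of the members higher), 8, 8 and 7 for both factors (23.9%, 44% and 25.5%, with 8, 7 and 5 higher) and 6, 6 and 1 for Wnt3a (12.9%, 20.4% and 3.49%, with 6, 5 and 1 higher). Days lay mostly on different slides, and the part of the slide in these changes was not tested.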

How the results depend on the processing

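Of 289 recomputed counts of called members, leaving arrays out aside, 256 stayed within 1.5 times the reported one, and of 2177 recomputed differences of members past the adjusted p, 2032 kept direction and side, 130 kept direction only and 15 reversed. Against ESCs, Activin A at day 5 gave 8 calls at the 75th percentile of miRNAs detected on all arrays, 9 at that of all miRNAs and 3 in the deposited table as named. Both factors gave 8, 9 and, with normexp background correction, 2, and control day 5 against day 3 gave 1 with normexp. Against control at day 1, Wnt3a gave 0 under both percentiles, normexp, slide as a random block and slide as a term (added after seeing the data), as did both factors, also in the deposited table, where Activin A gave 1. At day 3, Activin A gave 3 with quantiles within each day and with normexp. Both factors gave 4 and 4 under the percentiles, 5 within days, 2 with normexp and 5 in the deposited table, and Wnt3a gave 1 with quantiles of log2 values. At day 5, Wnt3a gave 0 with normexp, slide as a term or the plain test without limma, and 2 in the 39-array fit. Both factors gave 5 with normexp and with the slide term.

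Reversed members under the percentile of miRNAs detected on all arrays were miR-290-5p and miR-295 at day 1 against ESCs (0.25 and 0.38), miR-290-3p from control day 3 to 5 (0.067), miR-291a-3p against ESCs with Activin A (-1.19) and both factors (-1.10), and miR-295 with both (-1.21). Under that of all miRNAs they were 0.38 for miR-295 at day 1, -1.64 and -1.53 for miR-291a-3p and -1.64 for miR-295. With normexp they were miR-291a-5p with Wnt3a at day 1 (-0.081), miR-290-3p with Activin A and both factors at day 3 (-0.062 and -0.038) and miR-292-5p with Activin A at day 3 (-0.086). In the deposited table as named they were miR-291a-3p and miR-295 with both factors against ESCs (-0.091 and -0.052), and for both factors against Activin A miR-291a-5p and miR-292-5p at day 1 (-0.21 and -0.58) and miR-290-5p, miR-292-5p and miR-292-3p at day 3 (-0.46, -0.60 and -0.46), where the exchanged columns turn the sign. The cause of the others was not tested.

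Leaving out 1 array gave 0 to 1 calls for Wnt3a and 0 to 2 for both factors at day 1, 5 to 7 for Activin A and 7 to 8 for both factors at day 3, 1 to 4 for Wnt3a and 7 to 8 for both factors at day 5, and against ESCs 4 to 5 for Activin A, 3 to 4 for both factors and 8 to 9 for Wnt3a. It gave 6 to 7 from control day 1 to 3 and 4 to 5 from day 3 to 5. At day 1 the call of miR-290-5p was lost without any one of control arrays 1 and 3 or any Wnt3a array. With the replicate number as a block no count of called members changed, with 7 for Activin A and 8 for both factors against control at day 5.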
